A study of Mus musculus with 16 samples.

Results

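The cold response of white fat was set against that of brown fat in the same experiment, using all 16 libraries of the series. For each gene, the log2 fold change between cold and warm housing was taken in each depot, and the brown fat value was subtracted from the white fat value. This difference of differences is called the interaction below. A positive interaction means that a gene rose more, or fell less, in white fat.

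The tissues came from female, wild-type C57BL/6 mice, 16 weeks of age, with food withdrawn for 2 to 3 h before collection. No group carried a transgene or other treatment, and all mice were raised at 30 °C. The groups BAT_30C (brown adipose tissue) and WAT_30C (inguinal white adipose tissue) came from mice that stayed at 30 °C. The groups BAT_5C and WAT_5C came from mice moved at 10 to 12 weeks of age, where they spent 2 weeks at 18 °C before a final 3 weeks at 5 °C. Each group held 4 libraries. The labels do not say that libraries came from separate mice, so p-values measure the spread between these libraries, which may be technical. One tissue label of the BAT libraries reads inguinal, although their Ucp1 level at 30 °C was 634 to 2020 CPM (counts scaled to library size) against 0.0839 to 0.324 CPM in WAT_30C.

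Brown fat burns fuel to make heat through uncoupling protein 1 in its mitochondria, and cold activates it through sympathetic nerves. White fat stores triglyceride and releases fatty acids, but in long cold exposure parts of the inguinal depot gain heat-producing beige adipocytes. Both depots can therefore use the same thermogenic and lipid genes, from very different starting levels.

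Depth ran from 54264023 to 71289020 counts per library. Replicate 1 of WAT_5C stood apart: its summed mammary epithelial markers were 12.1 CPM against 885 to 927 CPM in the other 3 WAT_5C libraries, and its summed adipocyte markers were 16600 CPM against 4430 to 6530 CPM. Its summed skeletal muscle markers were 5210 CPM against 7.74 to 174 CPM, while WAT_30C ranged from 80.7 to 7590 CPM. Summed T and NK cell markers were 525 to 743 CPM in WAT_30C, 114 CPM in that library and 411 to 488 CPM in the other WAT_5C libraries. They were 12.4 CPM or less in every BAT library, and summed B cell markers were 9.02 CPM or less there. The fit was therefore repeated on 15 libraries, without WAT_5C replicate 1. Of 92 named genes, 82 kept the call of their interaction there, and in 77 of these it moved by at most 1.5 times. The others are given below with both values. Most of the 92 were chosen for a large interaction or a small p in these fits, so their counts do not measure stability. Over all genes tested both ways, 3893 passed in both fits, 162 in 16 libraries only and 2302 in 15 libraries only. In 4 BAT libraries (replicates 3 and 4 of BAT_30C, replicates 1 and 2 of BAT_5C) one source label gives the other temperature than the title. Groups follow the titles and housing labels. Ucp1 was at 759 and 1890 CPM in those BAT_30C libraries, and at 634 and 2020 CPM in the others of that group. It was at 13300 and 12400 CPM in those BAT_5C libraries, and at 12700 and 13800 CPM in the others. These are bulk tissues, so fewer cells of a type and less RNA per cell cannot be told apart.

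The depots differed in their cold response at a large share of genes. Of 19481 genes tested, 4055 (20.8%) passed the interaction test at an adjusted p of 0.05. The interaction was positive in 2431 genes (12.5%) and negative in 1624 (8.34%). Without WAT_5C replicate 1, 6222 of 19849 genes passed (31.3%), 3101 positive (15.6%) and 3121 negative (15.7%). All 1624 negative genes were again negative and past the threshold in the 15 libraries, as were 2269 of the positive ones (93.3%). The balance of directions depended on the scaling: 60% of the passing genes were positive with TMM factors, 49.5% with RLE size factors (2056 positive and 2099 negative) and 70.7% with library totals (2608 positive and 1080 negative). DESeq2 gave 50.2% positive, and a fit of only the 12 libraries with no label conflict gave 51.9% (880 positive and 815 negative). That fit kept only replicates 1 and 2 of BAT_30C and replicates 3 and 4 of BAT_5C. In its counts, fewer libraries and the labels cannot be told apart.

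Most interactions went with a change in brown fat. Of the 2431 positive genes, 2144 fell in BAT and 198 rose in WAT, and of the 1624 negative genes, 1532 rose in BAT and 31 fell in WAT. In the fit of all 16 libraries 8676 genes (44.5%) passed the temperature test in BAT and 1587 (8.15%) in WAT, where 7.39% of genes rose and 0.760% fell. In BAT 20.9% rose and 23.7% fell. In 15 libraries 6.81% passed in WAT, 5.71% rising and 1.10% falling. The median absolute log2 effect was 0.513 in BAT and 0.266 in WAT. The call in WAT rests on the spread per gene that both depots share in that fit. When each depot was fitted alone, 9775 genes passed in BAT but 12 in WAT, and 359 in WAT without replicate 1 of WAT_5C. Scaling to library totals moved the median effect from -0.0772 to -0.453 in BAT and from 0.0177 to -0.264 in WAT, and the median interaction by 0.0887, so the depot effects below are relative to TMM scaling.

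Across the 19481 genes the log2 effects in BAT and WAT had a Pearson correlation of 0.309 and a Spearman correlation of 0.355, given as a description, since genes share the libraries. Both effects passed with the same sign in 1015 genes, and in 198 of these the interaction passed with the larger effect in BAT, against 14 with the larger effect in WAT. The scatter of effects in the 2 depots shows genes spread along the horizontal axis more than along the vertical one.

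**Figure D1:**
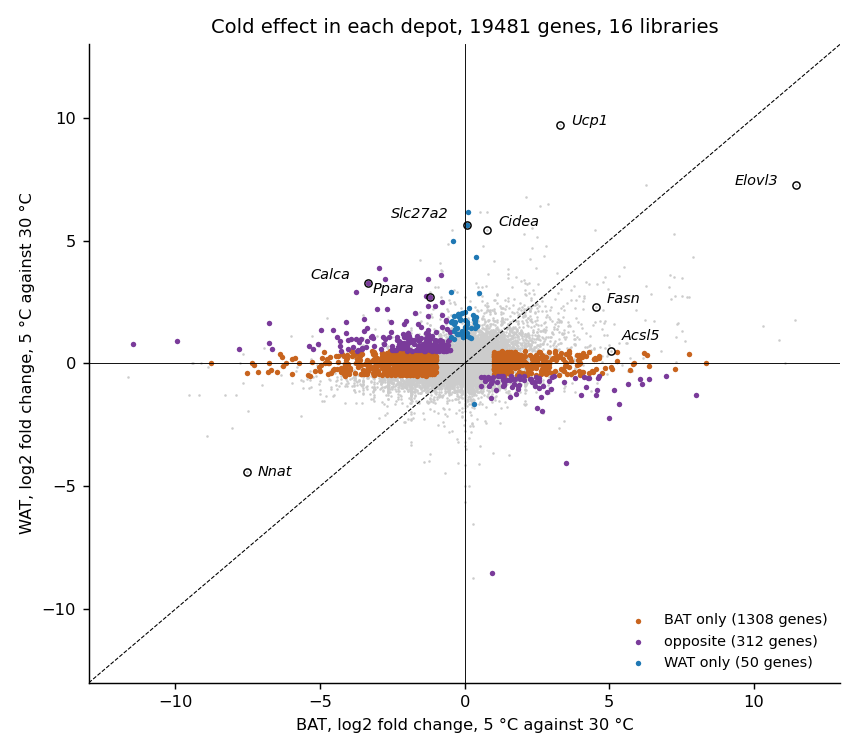
Log2 fold change of 5 °C against 30 °C in BAT (horizontal axis) and in WAT (vertical axis) for 19481 genes in 16 libraries, with 1 point per gene; the dashed line marks equal effects. The 1308 BAT-only genes lie along the horizontal axis, the 50 WAT-only genes along the vertical axis, and the 312 opposite genes in the upper left and lower right; open circles mark named genes.

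The best known cold genes showed how the starting level enters the comparison. Ucp1, the uncoupling protein, was at 634, 2020, 759 and 1890 CPM in BAT_30C and at 13300, 12400, 12700 and 13800 CPM in BAT_5C. The WAT libraries were at 0.163, 0.0839, 0.324 and 0.143 CPM in warm libraries and at 67.2, 6.08, 399 and 129 CPM in cold ones. The temperatures did not overlap in either depot. The log2 rise was 3.30 in BAT and 9.71 in WAT, so the interaction was 6.41 (SE 1.23, adjusted p = 0.00198), and 6.61 without WAT_5C replicate 1. On the CPM scale the order is the reverse: the mean rose by 11700 CPM in BAT and by 150 CPM in WAT. Over all genes past the interaction test, the sign of the CPM difference of differences was opposite to that of the log2 interaction in 72 (1.78%).

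Cidea, a lipid droplet protein of brown and beige fat, was at 1160, 1620, 1490 and 1870 CPM in BAT_30C and at 2790, 2620, 2640 and 2580 CPM in BAT_5C. In WAT it went from 1.61, 1.65, 5.82 and 1.67 CPM to 208, 20.8, 160 and 75.6 CPM, with no overlap in either depot. The BAT effect of 0.79 did not pass (adjusted p = 0.25), and with BAT fitted alone it was 0.80 (0.000402). The interaction was 4.64 (SE 0.79, adjusted p = 0.000893), and 4.16 without WAT_5C replicate 1. Elovl3, a fatty acid elongase, moved the other way. In the warm it was near the floor, at 0.0184 to 0.592 CPM in BAT and 0.0119 to 0.483 CPM in WAT. The sizes of its log2 rises rest on those low values. Cold libraries were at 684 to 887 CPM in BAT and 6.17 to 65.8 CPM in WAT. Its log2 rise of 11.45 in BAT exceeded that of 7.25 in WAT, with an interaction of -4.20 (adjusted p = 0.0271). That call was lost without BAT_30C replicate 3 (-3.87, adjusted p = 0.0546), WAT_30C replicate 2 (-3.24, 0.129) or WAT_30C replicate 3 (-4.05, 0.0599).

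Fasn, the fatty acid synthase, and Acly, which makes its acetyl-CoA, rose in both depots and more in BAT. Fasn rose from a mean of 2820 to 66200 CPM in BAT and from 3640 to 18100 CPM in WAT, an interaction of -2.24 (SE 0.55, adjusted p = 0.00925) that was -2.67 in 15 libraries. For Acly the interaction was -1.39 (adjusted p = 0.0277), and it missed the threshold when 1 of 6 libraries was left out (replicates 2 and 3 of BAT_30C, 3 and 4 of BAT_5C, 3 of WAT_30C or 3 of WAT_5C), with values from -1.17 to -1.35. Angptl4, a secreted inhibitor of lipoprotein lipase, fell by 1.65 on the log2 scale in BAT and had an effect of 0.48 in WAT (95% interval -0.24 to 1.21), an interaction of 2.13 (adjusted p = 0.00607). Nnat, an imprinted membrane protein, fell by 7.54 in BAT and fell by 4.42 in WAT on the log2 scale, with an interaction of 3.12 (adjusted p = 0.0183).

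Other genes of the panel were less clear. Pdk4, a kinase that shuts off pyruvate dehydrogenase, had an interaction of 1.93 (adjusted p = 0.0355), which missed the threshold in 11 of 16 fits that left out 1 library (replicates 2, 3 and 4 of BAT_30C, 1, 3 and 4 of BAT_5C, 1, 2 and 3 of WAT_30C, 1 and 3 of WAT_5C; values 1.43 to 1.99). Without WAT_5C replicate 1 it was 1.43 (0.0504). The interaction did not pass for Dio2, which activates thyroid hormone (1.61, adjusted p = 0.218), the coactivator Ppargc1a (0.60, 0.464), the hormone Fgf21 (-1.44, 0.416) or leptin, Lep (2.53, 0.0891). Without WAT_5C replicate 1 that of Ppargc1a was 0.09 (adjusted p = 0.914) and that of Lep 1.53 (0.189), while without WAT_5C replicate 3 that of Lep was 2.89 (0.0374). Lpl, lipoprotein lipase, had an interaction of 0.07 (adjusted p = 0.952), and WAT_5C replicate 1 decided it: that library held 9220 CPM against 1940 to 2790 CPM in the other 3, and without it the interaction was -0.73 (adjusted p = 0.0284).

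Genes were called opposite when the interaction passed, the 2 log2 effects had opposite signs and each was at least 0.5 in size, and at least 1 of them passed its own test. There were 312 such genes (1.60%), 230 with BAT falling (1.18%) and 82 with BAT rising (0.421%). In 15 libraries there were 307 (1.55%), 202 and 105. The 2 sets shared 155 genes, which is 49.7% of the first and 50.5% of the second. The BAT effect passed in 296 of the 312 and the WAT effect in 60.

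A stricter count asked that both depots pass with opposite signs. It held 80 genes (0.411%), 19 with BAT rising, and 84 (0.423%) in 15 libraries, of which 38 were shared. That count was unstable. It was 17 to 53 when 1 of 12 libraries was left out (replicates 2, 3 and 4 of BAT_30C, all 4 of BAT_5C, all 4 of WAT_30C, or replicate 4 of WAT_5C), and 202 without WAT_5C replicate 2. With each depot fitted alone it was 1 gene, or 18 in 15 libraries.

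Among the genes with BAT falling was Ppara, the nuclear receptor that drives fatty acid oxidation genes. It stood at 215, 360, 250 and 371 CPM in BAT_30C and at 141, 191, 62.0 and 130 CPM in BAT_5C. In WAT_30C it stood at 1.66, 2.97, 1.16 and 1.74 CPM, and in WAT_5C at 24.8, 3.20, 13.9 and 7.57 CPM. Warm and cold libraries did not overlap in either depot, which the rule for naming genes of this class required. The gap between the depots narrowed from both sides. The interaction was 3.90 (SE 0.71, adjusted p = 0.00141), and 3.27 in 15 libraries. The BAT effect alone was -1.19 (adjusted p = 0.0586); it passed without replicate 1 of WAT_5C (-1.16, 0.0243), replicate 2 of WAT_5C (-1.19, 0.0209) or replicate 2 of BAT_5C (-1.43, 0.0479), and with BAT fitted alone (-1.18, 0.00784). The WAT effect of 2.71 passed (adjusted p = 0.00784) but did not with WAT fitted alone (2.68, 0.136).

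Tnc, the matrix glycoprotein tenascin C, was at 23.4, 41.7, 53.4 and 43.8 CPM in BAT_30C and at 2.01, 3.72, 2.80 and 2.52 CPM in BAT_5C. WAT levels were 7.58, 13.8, 11.8 and 9.78 CPM in the warm and then 16.2, 17.0, 18.3 and 17.2 CPM. BAT held more of it than WAT in the warm and less in the cold, in every library. The interaction was 4.55 (SE 0.35, adjusted p = 1.36e-06) and 4.53 in 15 libraries. The effect of 0.68 in WAT did not pass (adjusted p = 0.0833), and of the fits that left out 1 library it passed only without BAT_30C replicate 1 (0.68, adjusted p = 0.0436).

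Eci3, an enoyl-CoA isomerase with close relatives that can share reads, fell in BAT from 26.7, 27.8, 25.3 and 28.0 CPM to 4.16, 2.83, 2.38 and 2.62 CPM. In WAT it was at 5.12, 7.02, 6.92 and 6.53 CPM and then at 24.1, 8.09, 9.45 and 10.9 CPM, where WAT_5C replicate 1 was the highest. The interaction was 4.21 (adjusted p = 1.03e-05), and 3.69 without that library. The WAT effect was 1.04 (adjusted p = 0.0349) with it and 0.55 (0.061) without it.

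Chn1, a GTPase-activating protein, was at 29.2, 28.0, 23.7 and 25.1 CPM in BAT_30C and at 22.3, 13.3, 16.6 and 15.8 CPM in BAT_5C. In WAT it rose from 4.06, 4.94, 6.68 and 5.78 CPM to 27.4, 10.6, 15.1 and 17.0 CPM. The depots differed several-fold in the warm and overlapped in the cold. The interaction was 2.35 (SE 0.34, adjusted p = 0.000293), and 2.00 in 15 libraries. The BAT effect of -0.64 (adjusted p = 0.0413) missed the threshold in 10 of the 16 fits that left out 1 library, up to 0.114 without BAT_5C replicate 2.

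Calca encodes calcitonin and the neuropeptide CGRP, and had an interaction of 6.61 (SE 1.18, adjusted p = 0.00123). It was low throughout, at 0.957 to 2.37 CPM in BAT_30C, then 0.0566 to 0.274 CPM in BAT_5C. The WAT libraries were at 0.51, 0.986, 0.525 and 1.16 CPM and then at 1.12, 23.8, 1.98 and 3.79 CPM, so WAT_5C replicate 2 stood far above the rest and the lowest cold value lay below the highest warm one. The interaction was 6.93 in 15 libraries. The WAT effect of 3.27 (adjusted p = 0.0221) missed the threshold without replicate 1, 2 or 3 of WAT_30C (3.11 to 3.39, adjusted p up to 0.0811). It was 1.53 (adjusted p = 0.0376) without WAT_5C replicate 2.

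The remaining genes named in this class were Mmp2, Lrrc15, Mum1l1, Fam83a, Nfe2l3, Trmt9b and, from the panel, resistin (Retn). Mmp2, a gelatinase that cuts matrix collagen, had effects of -0.76 in BAT and 0.66 in WAT and an interaction of 1.42 (adjusted p = 0.00222), and its WAT effect missed the threshold in 14 of 16 fits that left out 1 library. Lrrc15, a membrane protein of matrix-making fibroblasts, had an interaction of 2.97 (adjusted p = 0.0127), and 3.31 in 15 libraries, where both depot effects passed (-1.47 and 1.83). The interactions of Mum1l1 (3.22), Fam83a (2.28) and Trmt9b (2.49) passed in both sets of libraries, although Trmt9b was BAT only in 15 libraries, where its WAT effect was 0.40. The WAT effect of Fam83a was 1.48, and 0.91 without WAT_5C replicate 1. Nfe2l3, a basic leucine zipper factor, fell by 4.38 on the log2 scale in BAT, and its effect in WAT was 0.29, and 0.63 without WAT_5C replicate 1, which held 0.528 CPM against 4.14 to 5.49 CPM. It was therefore BAT only in 16 libraries and opposite in 15. That library also had the mammary marker sum of 12.1 CPM, whose part in the result was not tested. Retn, counted as opposite in 16 libraries alone, had an interaction of 1.65 (adjusted p = 0.0268), lost without BAT_30C replicate 1 (1.37, 0.0596), BAT_5C replicate 2 (1.55, 0.0547), BAT_5C replicate 4 (1.45, 0.0509) or WAT_30C replicate 1 (1.53, 0.056).

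The opposite genes with BAT rising included smaller changes at lower levels. Itih4, a secreted inter-alpha-trypsin inhibitor chain, was at 5.15, 3.16, 3.02 and 3.65 CPM in BAT_30C and at 9.39, 9.79, 9.64 and 9.19 CPM in BAT_5C. WAT levels were 3.15, 3.73, 3.42 and 3.50 CPM in the warm and then 2.56, 2.33, 2.41 and 1.84 CPM. The depots were alike in the warm and did not overlap in the cold. The interaction was -1.94 (SE 0.23, adjusted p = 6.45e-05), and -2.04 in 15 libraries. The WAT effect of -0.59 (adjusted p = 0.0391) missed the threshold in 11 fits that left out 1 library, up to 0.103 without WAT_5C replicate 4.

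Carns1, which makes the dipeptide carnosine, was at 3.22 to 4.57 CPM in BAT_30C, then 5.12 to 7.33 CPM in BAT_5C, and at 25.0 to 37.8 CPM in WAT_30C and 12.8 to 23.3 CPM in WAT_5C. Its effects were 0.70 and -0.71, and its interaction -1.41 (adjusted p = 0.00183). The WAT effect missed the threshold without replicate 1 or 3 of WAT_30C or replicate 3 of WAT_5C (adjusted p up to 0.115). Itgae, the integrin chain CD103 found on T cells and dendritic cells, had an interaction of -1.72 (adjusted p = 0.00172). Its level in WAT was 19.8 to 29.2 CPM in the warm and 9.73 to 16.7 CPM in the cold, lowest in WAT_5C replicate 1, beside the fall of the T and NK marker sum given above. Warm BAT libraries held 1.52 to 3.25 CPM of Itgae, and cold ones held 3.48 to 4.48 CPM. The T and NK marker sum moved the other way there, with 8.93 to 12.4 CPM when warm and 2.1 to 5.68 CPM when cold. All 10 markers of that list were detected in each WAT library, and their part in the result was not tested. Its WAT effect of -0.82 (adjusted p = 0.0364) missed the threshold in 8 of 16 fits that left out 1 library (replicate 2 of BAT_30C, 2 and 4 of BAT_5C, 1 and 3 of WAT_30C, or 1, 3 and 4 of WAT_5C). It was -0.70 (0.0634) without WAT_5C replicate 1, and the highest adjusted p was 0.118, without WAT_30C replicate 1.

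Kcnh2, a potassium channel, had an interaction of -3.04 (adjusted p = 3.31e-05), and Klk8, a secreted serine protease, of -2.21 (0.0121). Gstp3, a glutathione transferase whose near-identical relatives can share reads, had an interaction of -2.54 (adjusted p = 0.0014). With all libraries the WAT effects of Kcnh2 (-0.56, adjusted p = 0.139), Klk8 (-0.85, 0.182) and Gstp3 (-0.63, 0.203) did not pass. In BAT Gstp3 was low, at 0.13 to 0.324 CPM in BAT_30C (52 counts) and 0.636 to 1.23 CPM in BAT_5C. Kcnh2 and Gstp3 were BAT only in 15 libraries, where their WAT effects were -0.49 and -0.41. Klk8 was at 1.14 CPM and Gstp3 at 2.10 CPM in WAT_5C replicate 1, against 5.09 to 6.01 CPM and 5.16 to 5.38 CPM in the other 3. Mammary markers were low in that library too, and their part in the result was not tested. Rragd, a GTPase that recruits mTORC1 to lysosomes, rose by 2.25 in BAT, and its WAT effect was -0.64 in 16 libraries and -1.51 (adjusted p = 0.0547) in 15, since WAT_5C replicate 1 held 12.6 CPM against 2.84 to 3.14 CPM in the other 3. Slc16a3, a lactate exporter, and Ntrk2, a neurotrophin receptor, passed only without that library, with interactions of -2.04 (adjusted p = 0.000973) and -1.50 (0.000697) against -0.91 (0.403) and -0.85 (0.226) with it.

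**Figure D2:**
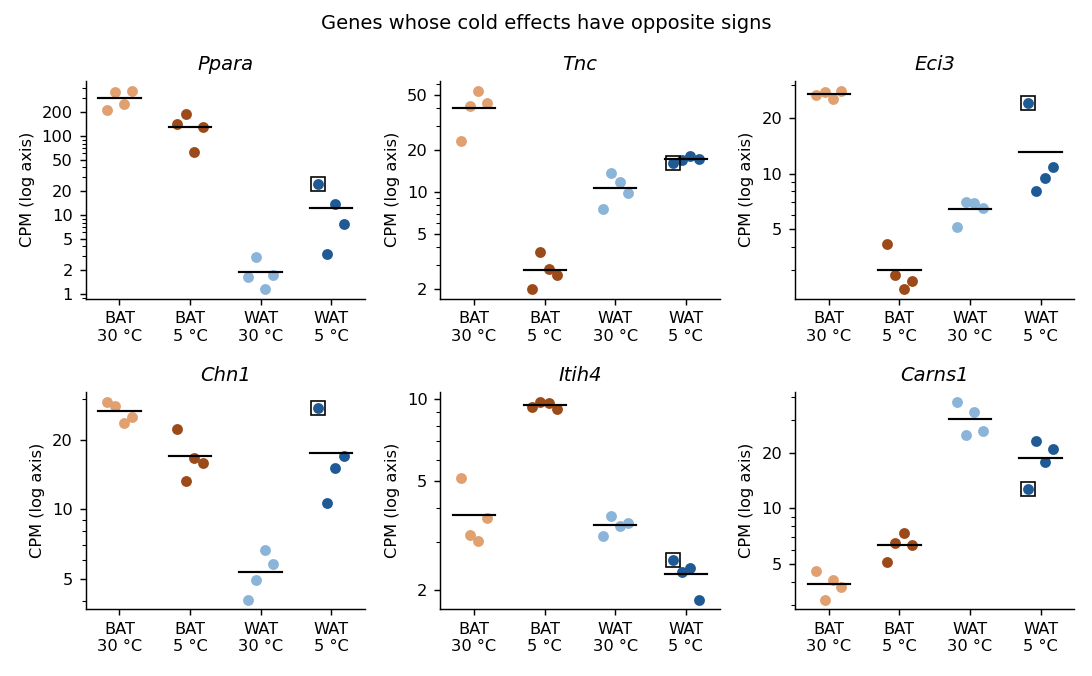
CPM per library on a log axis for 6 genes with opposite cold effects, in BAT and WAT at 30 °C and 5 °C (4 libraries per group); points are libraries, horizontal lines are group means, and the open square marks WAT_5C replicate 1. In Ppara, Tnc, Eci3 and Chn1 the cold points lie lower in BAT and higher in WAT, and in Itih4 and Carns1 the reverse.

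Genes were called BAT only when the interaction and the BAT effect passed, the BAT effect was at least 1 in log2 size, and the WAT effect neither passed nor reached 0.5. There were 1308 such genes (6.71%), of which 381 rose (1.96%) and 927 fell (4.76%). In 989 of the 1308 the 95% interval of the WAT effect lay within 1 of 0. In 15 libraries there were 1739 genes (8.76%), 578 rising (2.91%) and 1161 falling (5.85%), and 1145 genes were in both sets (87.5% of the first and 65.8% of the second). With each depot fitted alone the count was 1323. Only 12 genes passed in WAT there, and the interaction was still that of the joint fit, so this count is no independent check.

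St3gal5, the enzyme that makes the ganglioside GM3, gave the clearest case. It was at 3.71, 4.16, 2.45 and 4.11 CPM in BAT_30C and at 87.3, 82.4, 75.7 and 78.2 CPM in BAT_5C. In WAT it was at 8.04, 6.57, 6.47 and 8.54 CPM and then at 10.5, 7.50, 7.76 and 7.80 CPM. The BAT values were below WAT in the warm and far above it in the cold, while the WAT temperatures overlapped. BAT rose by 4.49 on the log2 scale (SE 0.18), the WAT effect was 0.18 (95% interval -0.15 to 0.51), and the interaction was -4.31 (SE 0.23, adjusted p = 8.12e-08).

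Ryr2, a calcium release channel of the endoplasmic reticulum best known from heart, was at 0.185 to 0.445 CPM in BAT_30C, then 6.22 to 7.49 CPM in BAT_5C. The WAT libraries were at 0.704 to 1.21 CPM in the warm and 0.518 to 1.21 CPM in the cold, and its interaction was -4.75 (adjusted p = 7.68e-06). Sult5a1, a sulfotransferase, rose in BAT from 2.34 to 3.97 CPM to 45.9 to 86.1 CPM, and had an interaction of -4.36 (adjusted p = 5.20e-05). The little studied Tmem28 (-5.06) and Fam131c (-5.98) also passed, and in Fam131c the WAT effect was 0.34 in 16 libraries and 0.70 in 15, above the limit for BAT only.

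Slco4a1, an organic anion transporter, was at 0.405 to 0.957 CPM in BAT_30C, then 25.7 to 50.3 CPM in BAT_5C, and at 1.15 to 2.11 CPM in WAT_30C and 0.576 to 1.48 CPM in WAT_5C. Its interaction was -6.70 (SE 0.47, adjusted p = 6.04e-07) in 16 libraries and -6.56 in 15. Bdh1, which interconverts ketone bodies, and Mfsd2a, which carries lysophospholipids into cells, had interactions of -7.00 and -7.50. Both were higher in every BAT_5C library than in any BAT_30C library, which the naming rule required. These 3 genes were BAT only in 15 libraries, but opposite in 16, where their WAT effects of -0.63, -0.63 and -0.53 crossed the limit without passing. In WAT_5C replicate 1 Bdh1 was at 1.01 CPM against 5.17 to 7.54 CPM in the other 3. Tjp3, the tight junction protein ZO-3, had an interaction of -5.84 and showed the same pattern, with 1.25 CPM in that library against 13.5 to 17.7 CPM. That is the library with a mammary epithelial marker sum of 12.1 CPM, whose part in the WAT levels of these genes was not tested.

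Among the genes falling only in BAT, Cdhr5, a cadherin of brush borders, went from 10.0, 12.9, 11.6 and 11.9 CPM to 0.0566, 0.0457, 0 and 0 CPM. WAT levels were 0.119 to 0.424 CPM in the warm and 0.112 to 0.529 CPM in the cold, with an interaction of 8.80 (SE 0.82, adjusted p = 8.32e-06). Shisa7, an auxiliary subunit of neurotransmitter receptors, had 1227 counts over BAT_30C and 0 over BAT_5C, at least 325-fold lower when 3 counts are allowed for the whole cold group. In WAT it was at 0.346 to 0.567 CPM in warm libraries and 0.08 to 0.408 CPM in cold ones. It counted as BAT only in 15 libraries (WAT effect -0.27) and not in 16 (-0.55).

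Rab17, a GTPase of epithelial membrane traffic, was at 19.1 to 25.4 CPM in BAT_30C, then 0.0283 to 0.365 CPM in BAT_5C. The WAT libraries were at 3.65 to 5.25 CPM and then at 0.112, 5.74, 5.96 and 6.13 CPM, where the low value is again WAT_5C replicate 1. Ppp1r1b, the phosphatase inhibitor DARPP-32, was at 75.6, 23.3, 19.2 and 15 CPM in BAT_30C and at 0.148 to 0.236 CPM in BAT_5C, with an interaction of 7.23 (adjusted p = 0.000234). Spag5, a mitotic spindle protein, fell by 5.19 on the log2 scale in BAT, with a WAT effect of -0.29 and an interaction of 4.90 (adjusted p = 9.21e-06). The early response factor Egr3 (4.29), the basement membrane protein Fras1 (6.55), the copine Cpne9 (6.16) and the desmosomal protein Cdsn (4.94) also had positive interactions that passed. In 15 libraries Fras1 was opposite (WAT effect 0.54) and Cpne9 was in no class (-0.72). Cpne9 was near the floor in WAT, at 0.0358 to 0.0781 CPM in WAT_30C (21 counts) and 0.022 to 0.176 CPM in WAT_5C (20 counts). Those counts are too few to tell whether it responded there. Egr3 was at 0.406 to 6.07 CPM in BAT_30C (mean 2.47 CPM) and had 15 counts over BAT_5C. It met the naming limit of 5 CPM only through WAT, where the WAT_30C mean was 7.55 CPM. Cdsn left the class in 15 libraries, where its WAT effect was -1.33 (adjusted p = 0.111), since WAT_5C replicate 1 held 73.2 CPM against 16.0 to 19.1 CPM.

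Genes called WAT only by the mirror rule were few. There were 50 (0.257%), of which 49 rose (0.252%) and 1 fell (0.00513%), and in 31 the 95% interval of the BAT effect lay within 1 of 0. In 15 libraries there were again 50 (0.252%), with 32 rising (0.161%) and 18 falling (0.0907%), and 26 genes were shared. The count was 30 to 33 when 1 of 6 libraries was left out (replicates 3 and 4 of BAT_30C, 2, 3 and 4 of BAT_5C, or 1 of WAT_30C) and 125 without WAT_5C replicate 2. With each depot fitted alone it was 0 genes in 16 libraries and 10 in 15.

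Slc27a2, which activates and imports very long chain fatty acids, rose in WAT alone in both sets of libraries. It was at 0.0962, 0.0315, 0.0558 and 0.0597 CPM in WAT_30C and at 2.66, 0.396, 7.46 and 2.03 CPM in WAT_5C. In BAT it was at 92.6, 283, 186 and 252 CPM and at 214, 262, 157 and 234 CPM, overlapping fully. The interaction was 5.54 (SE 0.98, adjusted p = 0.00119) and 5.55 in 15 libraries. With WAT fitted alone the WAT effect of 5.61 had an adjusted p of 0.0743, and 0.0323 in 15 libraries.

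Sugct, a mitochondrial CoA transferase of glutarate breakdown, was at 1.56, 2.75, 2.72 and 2.10 CPM in WAT_30C and at 15, 5.47, 8.67 and 8.92 CPM in WAT_5C, and it stayed between 16.2 and 21.0 CPM in all 8 BAT libraries. Its interaction was 2.14 (SE 0.35, adjusted p = 0.000609), and 1.78 in 15 libraries. Dgat2, which makes the last step of triglyceride synthesis, rose in WAT from 284 to 439 CPM to 631 to 2270 CPM. It was at 1340 to 2390 CPM in BAT_30C, then 1170 to 1450 CPM in BAT_5C, and its interaction was 2.19 (adjusted p = 0.00286).

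Acaa2, the last enzyme of mitochondrial beta-oxidation, was at 39.6 to 57.3 CPM in WAT_30C and at 330, 66.1, 178 and 132 CPM in WAT_5C, against 2010 to 2610 CPM in all BAT libraries. Its interaction was 1.96 (adjusted p = 0.00753), and 1.42 in 15 libraries. Adora1, the adenosine receptor that restrains lipolysis, was at 120 CPM in WAT_5C replicate 1 and 19.9 to 33.3 CPM in the other 3, and its interaction was 2.19 with that library and 1.27 (adjusted p = 0.00237) without it. In both genes that library was the highest of WAT_5C, beside its adipocyte marker sum of 16600 CPM, whose part in the result was not tested.

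Pm20d1, which makes N-acyl amino acids, and Plin5, a droplet protein that links lipid to mitochondria, show the limit of the class. Their interactions were 2.01 and 2.35 (adjusted p = 0.00177 and 0.00968). Their BAT effects of -0.35 and 0.50 did not pass in the fit of all libraries but passed with BAT fitted alone (adjusted p = 0.00815 and 0.00697), and warm and cold BAT libraries did not overlap in either gene. Plin5 was in no class in 15 libraries. Frem1, a basement membrane protein, and Hpcal4, a calcium sensor, entered the class without WAT_5C replicate 1, with interactions of 1.67 (adjusted p = 0.0293) and 1.58 (0.00106) against 1.32 (0.362) and 1.33 (0.0607) with it. Hpcal4 was near the floor in WAT, at 0.105 to 0.179 CPM in WAT_30C (48 counts) and 0.096 to 0.641 CPM in WAT_5C (123 counts). It met the naming limit of 5 CPM only through BAT, where it was at 9.21 to 12.9 CPM.

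The 2 genes named among those falling only in WAT, Mybph and Cmya5, are sarcomere genes of muscle. They passed in 15 libraries alone, with interactions of -6.30 (adjusted p = 0.0245) and -3.50 (0.0439) against -2.31 (0.495) and -0.75 (0.783) in 16. Mybph was at 0.24, 4, 24.2 and 3.18 CPM in WAT_30C and at 7.08, 0.011, 0.107 and 0.231 CPM in WAT_5C. The summed muscle markers of those libraries, 80.7 to 7590 CPM in WAT_30C and 7.74 to 174 CPM in WAT_5C without replicate 1, moved with them. None of the 6 muscle markers was at 0 in any WAT library, and their part in the result was not tested.

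**Figure D3:**
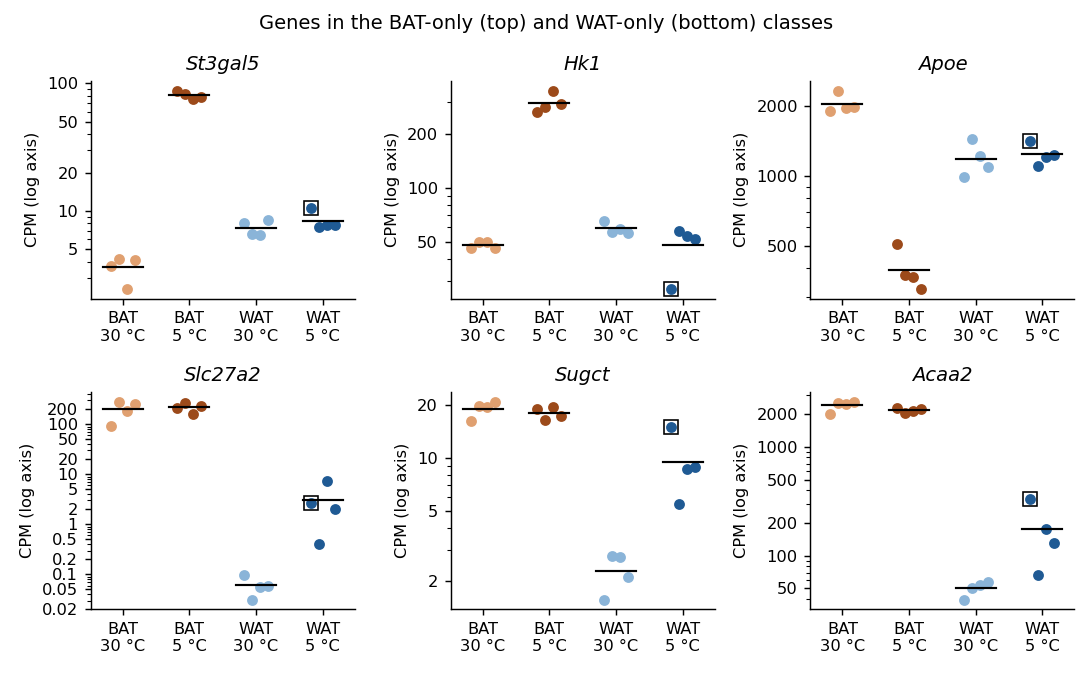
CPM per library on a log axis for 3 BAT-only genes (top row) and 3 WAT-only genes (bottom row), in BAT and WAT at 30 °C and 5 °C (4 libraries per group); points are libraries, lines are group means, and the open square marks WAT_5C replicate 1. St3gal5, Hk1 and Apoe move in BAT while the WAT libraries overlap or nearly so, and Slc27a2, Sugct and Acaa2 rise in WAT while the BAT libraries overlap.

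The gene lists put these classes into pathways. Over all genes, 12.5% had a positive and 8.34% a negative interaction in 16 libraries, and 15.6% and 15.7% in 15 libraries, against which the counts of each fit are to be read. The temperature test gave 20.9% rising and 23.7% falling in BAT, and 7.39% and 0.760% in WAT. All genes had a median interaction of 0.12 with TMM, 0.04 with RLE and 0.21 with library totals. Cholesterol synthesis, which turns acetyl-CoA into sterols under control of the SREBP factors, had 14 of 23 members with a negative interaction and 1 with a positive one. Its median interaction was -0.904 (-1.14 in 15 libraries, where 19 were negative), and it was negative under all 3 scalings. In BAT 20 members rose and 1 fell, beside 20.9% and 23.7% of all genes, and in WAT 11 rose, or 9 in 15 libraries, beside 7.39% and 5.71%. Sc5d, a sterol desaturase, rose by 2.43 in BAT against 0.85 in WAT, with an interaction of -1.58 (adjusted p = 0.0012), and Idi1, an isoprenoid isomerase, had an interaction of -1.36 (0.00451). Their WAT effects of 0.85 and 0.83 missed the threshold without replicate 1, 2 or 3 of WAT_30C (adjusted p up to 0.0769), and that of Idi1 was 0.53 (0.049) without WAT_5C replicate 1.

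The upstream sequences of 3 of these genes are shown because the members moved together in BAT. They are the 250 bases before the RefSeq start (GRCm38.p6), 5′ to 3′ on the gene's strand, with the letters CCAAT, or ATTGG for the other strand, in capitals. Sc5d lies at chr9:42264301-42264550 on the minus strand, Idi1 at chr13:8885356-8885605 on the plus strand, and Lss, lanosterol synthase, whose interaction did not pass in 16 libraries (-0.37, adjusted p = 0.439) but did in 15 (-0.73, 0.0164), at chr10:76531355-76531604 on the plus strand.
Sc5d: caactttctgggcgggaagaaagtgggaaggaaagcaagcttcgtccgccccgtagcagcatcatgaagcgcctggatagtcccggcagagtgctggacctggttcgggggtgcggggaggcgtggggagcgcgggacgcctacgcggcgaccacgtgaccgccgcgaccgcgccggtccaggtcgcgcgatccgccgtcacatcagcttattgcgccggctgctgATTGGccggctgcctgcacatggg
Idi1: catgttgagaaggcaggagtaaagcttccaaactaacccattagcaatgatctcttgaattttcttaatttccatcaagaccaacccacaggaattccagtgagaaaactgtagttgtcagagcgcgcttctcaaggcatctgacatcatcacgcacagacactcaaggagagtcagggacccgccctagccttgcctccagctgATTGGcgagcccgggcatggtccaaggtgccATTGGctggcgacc
Lss: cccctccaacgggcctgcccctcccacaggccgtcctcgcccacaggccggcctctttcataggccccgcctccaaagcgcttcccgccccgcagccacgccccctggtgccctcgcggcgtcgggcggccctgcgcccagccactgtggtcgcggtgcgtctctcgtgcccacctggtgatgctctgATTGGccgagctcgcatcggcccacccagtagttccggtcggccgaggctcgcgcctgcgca

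Of the 23 cholesterol synthesis members, 15 had such a window, and in 15 of 15 it held CCAAT on either strand, against 5133 of 13039 genes tested (39.4%). Counted by window, because some genes have several starts, it was 15 of 18 against 5697 of 16527 (34.5%). The letters were present in all 8 genes with a negative interaction in 16 libraries and in all 7 others, so they did not separate the genes past that test from the rest. A match is only a description of the letters.

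Glucose uptake and glycolysis had 9 of 21 members with a negative interaction and 2 with a positive one, with a median of -0.561 (-1.38 in 15 libraries, 11 negative). Hk1, a hexokinase that traps glucose in the cell, was at 45.9 to 50.1 CPM in BAT_30C, then 265 to 346 CPM in BAT_5C, and at 56.0 to 65.4 CPM in WAT_30C. In WAT_5C it was at 27.3, 57.7, 54.1 and 51.9 CPM, with an interaction of -2.94 (SE 0.25, adjusted p = 3.66e-06). Pfkp, a phosphofructokinase, rose by 3.09 in BAT against 0.63 in WAT, and Gpi1, which isomerizes glucose phosphate, by 2.41 against 0.99. Ldha, which makes lactate, rose by 2.30 in BAT, with an effect of 0.80 in WAT (adjusted p = 0.0723). Their interactions were -2.46, -1.43 and -1.50, and all 3 passed. The WAT effect of Pfkp missed the threshold without any 1 of the WAT_30C libraries (adjusted p up to 0.0743), and was 0.38 (0.0405) without WAT_5C replicate 1.

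Fatty acid synthesis had 5 of 20 members with a negative and 2 with a positive interaction, with a median of -0.614 (2 and 8, and -0.970, in 15 libraries). Pgd, an NADPH source of the pentose phosphate path, had an interaction of -2.06 (adjusted p = 0.0025) and Elovl5, an elongase, of -1.18 (0.00072), and both rose in both depots. Acsl5, an acyl-CoA synthetase on the fatty acid oxidation list, went from 62.8 to 75.3 CPM to 2100 to 2520 CPM in BAT. WAT levels were 73.7 to 85.2 CPM in the warm and then 94.4, 78.9, 160 and 110 CPM, so the depots were nearly alike in the warm. The interaction was -4.55 (SE 0.25, adjusted p = 1.08e-07).

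Triglyceride synthesis and droplet genes went both ways, with 5 of 20 positive and 2 negative, and 5 and 7 in 15 libraries, where the median turned from 0.433 to -0.145. Gk, glycerol kinase, rose by 3.06 in BAT against 1.21 in WAT, with an interaction of -1.85 (adjusted p = 0.00633), while those of Dgat2 and Cidea were positive. Its WAT effect missed the threshold without WAT_5C replicate 1 (1.02, adjusted p = 0.0611) and in 5 other such fits. Mogat1, a monoacylglycerol acyltransferase, had an interaction of -1.13 (adjusted p = 0.189), and of -1.99 (0.000332) without WAT_5C replicate 1, which held 35.4 CPM against 6.76 to 10.6 CPM. In the thermogenic list 8 of 25 members were positive and 4 negative (8 and 6 in 15 libraries). Alpl, a phosphatase, was the negative member with the smallest p. It rose by 1.95 in BAT, with a WAT effect of 0.08 (95% interval -0.22 to 0.39).

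Medians of the mitochondrial lists moved with WAT_5C replicate 1. They went from 0.445 to 0.054 for the TCA cycle, from 0.597 to 0.160 for fatty acid oxidation and from 0.397 to -0.016 for complex I when it was left out. The TCA cycle had 3 positive and 1 negative of 28 members in 16 libraries, and 2 and 4 in 15. For fatty acid oxidation it was 3 and 1 of 24, then 4 and 3. Subunits of complex I gave 1 and 0 of 37, then 1 and 1. These counts are near or below the shares of all genes, 12.5% and 8.34%, then 15.6% and 15.7%. The 13 proteins encoded in mitochondrial DNA gave 2 and 0, then 5 and 0, with median interactions of 1.24 and 0.647, and reads of these genes can be shared with nuclear copies. Under library totals the TCA cycle gave 7 positive and 1 negative, fatty acid oxidation 7 and 2, complex I 12 and 0, and mitochondrially encoded proteins 8 and 0.

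Of 31 collagens and matrix genes, 12 had a positive interaction and 1 a negative one (15 and 1 in 15 libraries), with a median of 0.639. In BAT 12 fell and 1 rose, beside 23.7% and 20.9% of all genes, and in WAT 5 rose and 0 fell, beside 7.39% and 0.760%. Col12a1, a collagen that coats fibrils, fell in BAT from 51.8 to 78.3 CPM to 9.31 to 14.7 CPM, and had a WAT effect of 0.39 (0.52 in 15 libraries, where it was opposite) and an interaction of 2.75 (adjusted p = 1.74e-05). Loxl1, an elastin and collagen cross-linker, was the exception: it rose in BAT from 11.4 to 19.5 CPM to 53.8 to 62.7 CPM, with a WAT effect of 0.30 and an interaction of -1.65 (adjusted p = 0.000117). The summed fibroblast and progenitor markers were 207 to 255 CPM in BAT_30C, then 155 to 220 CPM in BAT_5C, and 545 to 883 CPM and 674 to 871 CPM in WAT. None of those markers was at 0 in any library, and their part in the result was not tested.

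In insulin and adipokine signalling 7 of 25 members were positive and 1 negative (6 and 2 in 15 libraries). Cfd, the complement protease adipsin, fell in BAT from 3640 to 7250 CPM to 658 to 1560 CPM and was at 4310 to 4800 CPM in WAT_30C and 4110 to 8890 CPM in WAT_5C, with an interaction of 2.73 (adjusted p = 0.000422). Igf1, a growth factor, fell by 1.34 in BAT, and its WAT effect was 0.00 (95% interval -0.46 to 0.46). Apoe, a lipoprotein component on the lipolysis and lipid uptake list, was at 1910 to 2330 CPM in BAT_30C, then 326 to 511 CPM in BAT_5C, with WAT between 987 and 1440 CPM throughout, an interaction of 2.44 (adjusted p = 7.84e-06).

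Among adrenergic and cAMP genes 4 of 28 were positive and 2 negative (4 and 3 in 15 libraries). That is near or below the shares of all genes, 12.5% and 8.34% (15.6% and 15.7% in 15 libraries). Of 5 adenylyl cyclases, which make cAMP, 2 were positive and 1 negative. Adcy9 had effects of -0.999 in BAT and 0.53 in WAT and an interaction of 1.53 (adjusted p = 0.000882). Adcy5 fell by 2.87 in BAT (interaction 3.16) and Adcy3 rose by 2.26 in BAT (interaction -1.55). The WAT effect passed in none of these 3 with all libraries, but without WAT_5C replicate 2 it did in Adcy9 (0.64, adjusted p = 0.0287) and Adcy3 (0.87, 0.0149). The interactions of Adcy4 (0.32, adjusted p = 0.269) and Adcy6 (0.09, 0.771) did not pass, and were 0.13 and -0.13 without WAT_5C replicate 1. Serine and one-carbon genes had 6 of 16 positive and 2 negative (7 and 3 in 15 libraries). Phgdh, the first enzyme of serine synthesis, went from 105 to 146 CPM to 1.24 to 4.72 CPM in BAT and had an interaction of 4.69 (adjusted p = 2.92e-05). Its WAT effect was -0.66 (adjusted p = 0.232), and -1.11 (0.0269) without WAT_5C replicate 1. Shmt1, which passes a carbon from serine to folate, fell by 1.12 in BAT, and its WAT effect was -0.06 (95% interval -0.29 to 0.18).

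White fat markers, a list that shares Phgdh, Nnat and Retn with the text above, had 5 of 14 positive and 0 negative (5 and 2 in 15 libraries). Nrip1, a corepressor of oxidative genes, fell by 1.47 in BAT, with a WAT effect of -0.03 (95% interval -0.47 to 0.41). Of 11 beige fat markers 3 were positive and 1 negative, with a median of -0.526 (2 and 2 in 15 libraries). The 3 positive ones are not described here. The negative one, Tnfrsf9, an immune receptor also used as a beige marker, had an interaction of -2.01 (adjusted p = 0.00108). With 1 library left out, its BAT effect was 1.29 to 1.43 and passed each time. Its WAT effect was -0.77 to -0.46 and passed in none of those fits. WAT levels of Tnfrsf9 were 4.92 to 7.88 CPM in the warm and 2.15 to 5.09 CPM in the cold, lowest in WAT_5C replicate 1. Cytosolic ribosomal proteins had 4 of 44 positive, 28 in 15 libraries, and 0 negative in either, and 40 of 44 fell in BAT and 2 in WAT, beside 23.7% and 0.760% of all genes. The T and NK markers had 0 of 10 past the interaction test in 16 libraries and 4 positive in 15.

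The hypoxia list, 19 genes, had 4 negative members and 1 positive one (5 and 2 in 15 libraries). Its median interaction was positive, 0.365 in 16 libraries and 0.033 in 15. The named members are the negative ones with the smallest p. Egln3, a prolyl hydroxylase that marks HIF for destruction and is itself a HIF target, was at 9.89 to 11 CPM in BAT_30C, then 75.4 to 98.9 CPM in BAT_5C, and at 6.55 to 7.72 CPM and 9.12 to 15.7 CPM in WAT. Its interaction was -2.44 (SE 0.19, adjusted p = 1.54e-06). Ankrd37, another known HIF target, rose in BAT from 0.148 to 0.258 CPM to 2.52 to 4.36 CPM and had a WAT effect of -0.41, with an interaction of -4.70 (adjusted p = 6.28e-06). Their upstream sequences are shown for the short core letters of the HIF site, ACGTG, or CACGT for the other strand, in capitals. Egln3 lies at chr12:54203875-54204124 and Ankrd37 at chr8:45999851-46000100, both on the minus strand of GRCm38.p6, in the same RefSeq windows of 250 bases.
Egln3: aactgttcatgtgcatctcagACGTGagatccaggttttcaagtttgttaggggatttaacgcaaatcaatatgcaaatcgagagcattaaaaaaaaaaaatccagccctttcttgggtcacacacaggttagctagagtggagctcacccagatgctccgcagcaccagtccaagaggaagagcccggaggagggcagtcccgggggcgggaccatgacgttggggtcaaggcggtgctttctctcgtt
Ankrd37: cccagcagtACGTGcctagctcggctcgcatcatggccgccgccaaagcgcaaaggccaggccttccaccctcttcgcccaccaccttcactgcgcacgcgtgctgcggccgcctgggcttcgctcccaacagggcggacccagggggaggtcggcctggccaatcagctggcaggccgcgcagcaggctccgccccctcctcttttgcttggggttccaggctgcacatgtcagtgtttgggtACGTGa

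The letters stood 229 bases before the start in Egln3, and at 241 and 6 bases in Ankrd37. They occurred in 7 of the 13 listed genes with a window (53.8%), against 3018 of 13039 genes tested (23.1%). That share is over the whole list and was not split by interaction, so it cannot set the negative members apart from the others. A match describes letters only, and the part of HIF in the result was not tested.

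**Figure D4:**
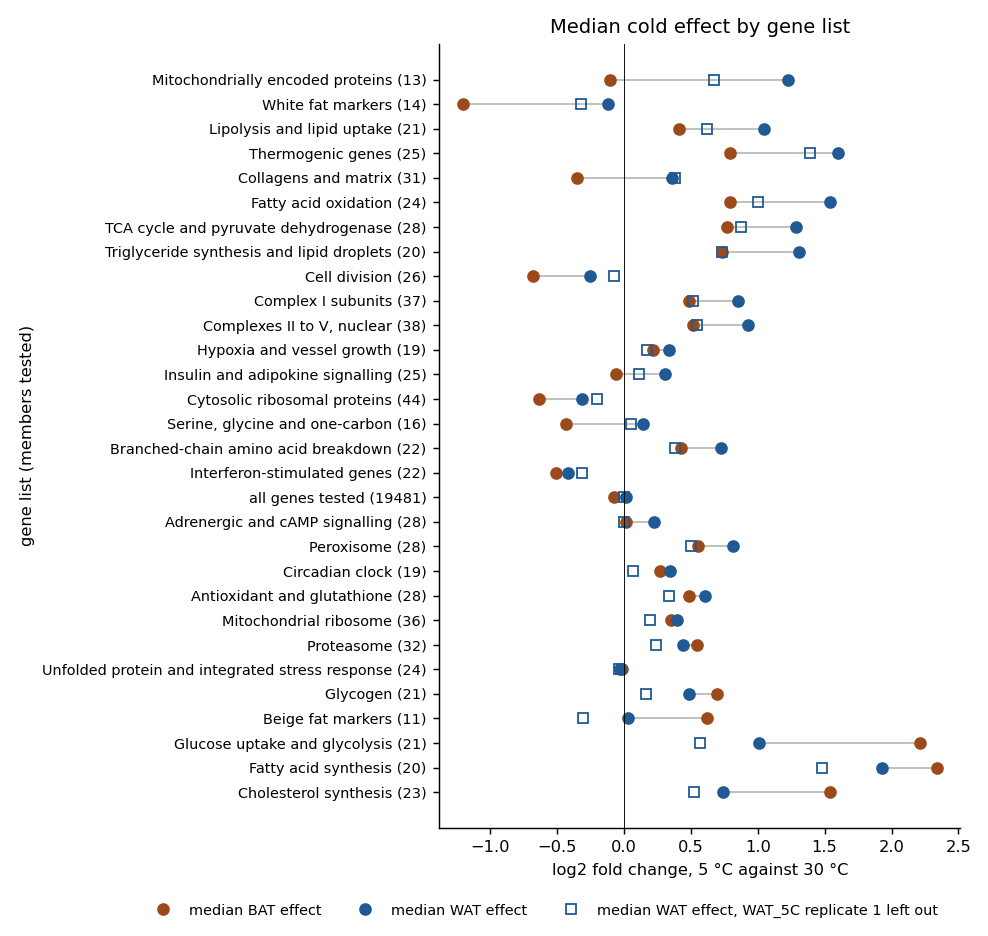
Median log2 fold change of 5 °C against 30 °C over the tested members of each gene list in BAT (brown) and WAT (blue), with all 19481 genes as 1 row; lists are ordered by median interaction and open squares leave out WAT_5C replicate 1. Cholesterol synthesis, fatty acid synthesis and glycolysis lie further right in BAT, and the TCA cycle, fatty acid oxidation and complex I lie further right in WAT with all libraries and nearer to BAT without that library.

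The effect of WAT_5C replicate 1 was uneven over genes. Of 19477 genes tested both ways, 3893 passed in both, 162 in 16 libraries only and 2302 in 15 libraries only. Among the genes that passed in either, 7 had interactions of opposite sign. The median interaction was 0.121 with that library and 0.0556 without it, and the median SE of the interaction 0.312 and 0.254.

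**Figure D5:**
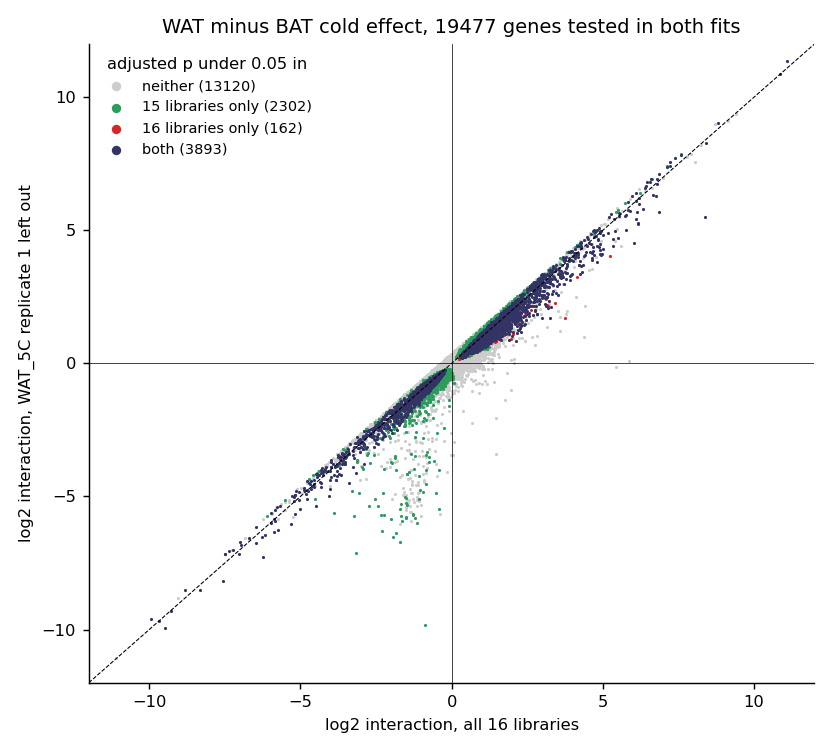
Log2 interaction (WAT cold effect minus BAT cold effect) from all 16 libraries (horizontal axis) and from 15 libraries without WAT_5C replicate 1 (vertical axis), 1 point per gene for 19477 genes, with the line of equality dashed. Most points lie near the line, and the 2302 genes past the threshold in 15 libraries only (green) include a group far below it, with more negative values when that library is left out.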

How the data were processed

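RNA sequencing of 16 fat libraries was analysed from the deposited table of whole-number read counts per gene, which the authors made. The reads were trimmed with Trim Galore and aligned with TopHat, per the submitters' processing notes. Versions, counting tool, strand setting, build and gene models were not given in the sources used here. Reads of overlapping, antisense and near-identical genes cannot be told apart. Groups came from titles and housing labels.

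Genes were kept by edgeR's filterByExpr (minimum count 10, minimum total 15), scaled by TMM and tested with edgeR 4.0.16 (R 4.3.3), a quasi-likelihood F-test with 1 mean per group, Benjamini-Hochberg adjustment over all genes and a threshold of 0.05. All adjusted p-values are from this test unless another tool is named. CPM are counts scaled to the TMM-adjusted library size. Intervals are 95% intervals of the fitted log2 effect. The 24 pairs of replicates all differed by more than counting noise. Simulated interactions of log2 size 1 were recovered in 37% of 100 genes and of size 2 in 79%, with 19131 genes tested. They were placed only in genes with higher mean counts, and no simulated library was made to stand apart like WAT_5C replicate 1. The recovered shares therefore do not carry over to genes near the floor or to those that rest on that library.

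Named genes are a panel of cold genes, up to 6 genes per class with the largest interaction (at least 5 CPM in the highest group, temperatures not overlapping in a depot said to respond), and up to 4 members per list with the smallest p. Lists, classes and members were chosen with earlier results of these data known. Alternatives used RLE factors, library totals, no filter, DESeq2 1.42.0, limma 3.58.1 (voom), single libraries left out, 12 libraries with matching labels, replicate blocks, separate fits per depot, and other thresholds. The separate fits without WAT_5C replicate 1 were added after seeing the data. Upstream sequences are from RefSeq. Not every gene chosen this way is reported here.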

Additional observations from a re-analysis of the deposited data

Results flagged for a closer look

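The cold effect differed between the depots by the interaction test in 2431 genes with a positive and 1624 with a negative interaction.

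Single libraries stood far from the other 3 of their group in 35 of 367 combinations of a named gene and a group. The rule was Dixon's ratio at its 95% critical value, where chance alone picks about 1 in 20. Some genes were named from the fit without WAT_5C replicate 1, so that rate is no reference for these counts. Of the 35, 15 lay in WAT_5C replicate 1. It was the highest of its group for Lpl (9220 CPM), Ntrk2 (320 CPM), Adora1 (120 CPM), Cmya5 (77.6 CPM), Cdsn (73.2 CPM), Mogat1 (35.4 CPM), Rragd (12.6 CPM), Slc16a3 (11.1 CPM), St3gal5 (10.5 CPM), Mybph (7.08 CPM) and Cpne9 (0.176 CPM). It was the lowest for Alpl (6.87 CPM), Gstp3 (2.10 CPM), Rab17 (0.112 CPM) and Shisa7 (0.08 CPM).

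In WAT_30C, replicate 3 was the highest for Fasn (5940 CPM), Mybph (24.2 CPM) and Cidea (5.82 CPM) and the lowest for Nfe2l3 (2.52 CPM). Replicate 1 was the highest for Pfkp (69.5 CPM) and the lowest for Ppargc1a (3.35 CPM), and replicate 4 the lowest for Egr3 (4.32 CPM). In WAT_5C, replicate 2 was the highest for Calca (23.8 CPM).

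In BAT_30C, replicate 1 was the highest for Pgd (266 CPM), Retn (197 CPM), Ppp1r1b (75.6 CPM), Lrrc15 (21.8 CPM), Tjp3 (0.332 CPM) and Ankrd37 (0.258 CPM). Replicate 3 was the highest for Frem1 (0.445 CPM) and the lowest for Nrip1 (52.7 CPM). In BAT_5C, replicate 4 was the highest for Ldha (3760 CPM) and the lowest for Ppp1r1b (0.148 CPM), replicate 1 the lowest for Egln3 (75.4 CPM) and replicate 2 the highest for Rab17 (0.365 CPM).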

How the results depend on the processing

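Over 92 named genes and the alternatives run, the interaction kept its direction and side of the threshold in 2125 of 2207 refits, lost the call in 57, gained it in 15 and turned in 10. Most of these genes were chosen for a large interaction or a small p, so these counts do not measure stability over all genes. Lpl turned to -0.02 with RLE factors, -0.02 with DESeq2, -0.49 with voom, -0.08 without WAT_30C replicate 1 and -0.73 without WAT_5C replicate 1 (-0.73 to 0.30 with 1 library left out). Cmya5 turned to 0.16 without BAT_5C replicate 2 and to 0.24 in the libraries whose labels all match (-3.50 to 0.16 with 1 library left out). Adcy6 turned to -0.01 with voom and to -0.13 without WAT_5C replicate 1 (-0.13 to 0.17 with 1 library left out). Among the counts, positive interactions numbered 3906 with voom, 880 with matching labels and 1210 at an adjusted p of 0.01, and 1939 to 3101 with 1 library left out. Negative ones numbered 1080 with library totals, 2548 with DESeq2, 2891 with voom, 815 with matching labels and 899 at 0.01, and 1282 to 3121 with 1 library left out. Opposite genes numbered 133 with matching labels and 167 at 0.01 (253 to 465 with 1 library left out). Those with both depots past the threshold numbered 49 with no filter, 175 with DESeq2, 347 with voom, 2 with matching labels, 5 at 0.01, 1 with depots fitted alone and 18 so without WAT_5C replicate 1 (17 to 202). BAT-only genes numbered 818 with matching labels, 860 at 0.01 and 791 with a limit of 0.25 (1067 to 1739). WAT-only genes numbered 7 with matching labels, 18 at 0.01, 27 with a limit of 0.25, 0 with depots fitted alone and 10 so without WAT_5C replicate 1 (30 to 125). The fit with matching labels also held fewer BAT libraries. The cause of these shifts was not tested.

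The labels do not say whether equal replicate numbers in BAT and WAT mark the same mouse. Deviations of equal numbers correlated at -0.31 to 0.264, and 2 of 8 libraries matched their own number best. These values cannot decide it, since depots of the same mouse need not deviate alike. With the replicate number as a block, 1989 positive and 1395 negative interactions passed, and Lpl was -0.21. A block of 4 levels gave 267 opposite genes, 33 with both depots past the threshold, 1200 BAT-only and 31 WAT-only genes.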
